A study of Homo sapiens with 6 samples.

Results

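The group of MHC class I antigen presentation genes was examined in H1299, a cell line from a human non-small cell lung cancer, with and without overexpression of lncBCAS1-4_1, a long non-coding RNA. Its members were the 9 entries of the count table whose gene symbol is HLA-B, HLA-C, HLA-E, HLA-F, B2M, TAP1, TAP2, TAPBP or NLRC5, out of 19201 entries in all. All 9 were present, each with an Ensembl ID that GENCODE 44 gives to the same symbol, and all 9 passed the filter on low counts. RNA-seq was run on 3 control libraries, labelled wildtype for genotype, and 3 libraries labelled as overexpressing lncBCAS1-4_1 (OE). Both groups are the same line, and no vector, treatment, time or clone is named for either, so what the RNA did and what the overexpression procedure did cannot be told apart. No entry named for lncBCAS1-4_1 was analysed here.

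MHC class I molecules display peptides from inside the cell to CD8 T cells. A heavy chain (such as HLA-B and HLA-C, or the less variable HLA-E and HLA-F) pairs with the invariant light chain encoded by B2M. Peptides made by the proteasome are carried into the endoplasmic reticulum by the transporter formed of TAP1 and TAP2, and tapasin, encoded by TAPBP, holds empty class I molecules at that transporter for loading. Transcription of the heavy and light chain genes is driven by NLRC5, the class I transactivator, together with RFX, CREB and NF-Y factors on a shared promoter module, and by interferon and NF-kappaB through neighbouring elements. Tumour cells often express these genes at low levels and raise them in response to interferon.

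Each library held between 84531039 and 92780032 counts, and the members' counts ran from 74 for HLA-F in a control to 39633 for B2M in an OE library. Separate cultures are not named for the replicates. The p-values therefore measure the spread of these samples alone, and that spread may be technical. The fold changes of all genes followed the GC content of their transcripts, with a median log2 fold change of -0.41 in the lowest of 10 equal bins of GC content and 0.28 in the highest. For this reason each member is given as fitted and again with an offset fitted to each library for GC content and length of the transcript. Of the epithelial markers, KRT18 and KRT8 stood at 956 and 368 CPM (counts per 1e6 library counts) in the controls, KRT7 at 2.79, KRT19 at 0.18 and NKX2-1 at 0.67. Of these, KRT18 (log2 fold change 0.44), KRT8 (0.28) and KRT7 (0.87) were higher in OE as fitted, and KRT7 alone with the offset (0.52, adjusted p = 0.029). Of 9 epithelial markers listed, these 5 were measured. The other markers, EPCAM and CDH1 among them, had no usable entry under their symbol and were not analysed here. Of 21 markers of immune, endothelial and fibroblast cells, 9 were measured, with a summed level of 75.0 to 79.4 CPM over the control libraries and 86.2 to 96.2 CPM over OE. Nearly all of that sum was CD68, a lysosomal gene, with means of 71.9 CPM (controls) and 83.2 CPM (OE). As fitted 3 of the 9 were higher, CD68, CSF1R (0.048 to 0.30 CPM) and CD14 (0.11 to 1.28 CPM), and with the offset CD14 alone. Over all genes 18.3% were higher as fitted and 11.5% with the offset. PTPRC, carried by all leukocytes, was not analysed here. The part of these markers in the results was not tested. As these are bulk samples, more cells expressing a gene and more RNA per cell cannot be told apart.

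The 250 bases before the start site are shown for a heavy chain pair, the light chain and a pair of peptide loading genes, because these promoters carry elements through which class I genes are known to be induced together. Sequences are from RefSeq (GRCh38.p14), which gave 7 of the 9 members. HLA-E and NLRC5 were not among them. They read 5′ to 3′ on the gene's strand, and capitals mark every match, on either strand, to 5 motifs. These were the interferon-stimulated response element, ISRE (GAAA, any 2 bases, GAAA), the kappaB site of enhancer A (GGGGA, any 1 base, TCCC), the core of the X2 box, a CREB site (TGACG), the core of the Y box, a NF-Y site (CCAAT), and GAS, a STAT site (TTC, any 3 bases, GAA). HLA-B lies at chr6:31357180-31357429 (minus strand), HLA-C at chr6:31272093-31272342 (minus), B2M at chr15:44711267-44711516 (plus), TAP2 at chr6:32838740-32838989 (minus) and TAPBP at chr6:33314079-33314328 (minus). Start sites are those of RefSeq and can differ from the ends of the GENCODE gene spans given below. All windows but that of TAP2 reach into those spans, and that of HLA-B lies wholly inside.
HLA-B: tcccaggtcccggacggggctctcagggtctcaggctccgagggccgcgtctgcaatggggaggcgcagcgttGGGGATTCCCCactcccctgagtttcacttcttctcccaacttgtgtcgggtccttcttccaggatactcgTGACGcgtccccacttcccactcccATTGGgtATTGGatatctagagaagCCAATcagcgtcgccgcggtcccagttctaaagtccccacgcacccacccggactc
HLA-C: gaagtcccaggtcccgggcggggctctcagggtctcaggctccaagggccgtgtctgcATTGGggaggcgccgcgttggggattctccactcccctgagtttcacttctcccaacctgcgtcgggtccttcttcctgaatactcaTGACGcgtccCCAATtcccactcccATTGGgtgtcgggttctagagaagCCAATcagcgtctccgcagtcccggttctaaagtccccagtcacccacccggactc
B2M: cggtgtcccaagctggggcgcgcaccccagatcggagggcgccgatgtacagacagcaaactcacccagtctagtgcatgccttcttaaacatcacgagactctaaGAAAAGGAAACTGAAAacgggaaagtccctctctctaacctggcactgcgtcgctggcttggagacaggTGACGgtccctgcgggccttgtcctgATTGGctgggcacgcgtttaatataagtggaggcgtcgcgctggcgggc
TAP2: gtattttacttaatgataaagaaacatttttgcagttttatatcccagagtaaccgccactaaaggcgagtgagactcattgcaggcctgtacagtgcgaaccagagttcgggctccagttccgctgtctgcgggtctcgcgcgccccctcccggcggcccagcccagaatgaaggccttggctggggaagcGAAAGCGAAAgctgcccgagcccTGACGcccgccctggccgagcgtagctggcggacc
TAPBP: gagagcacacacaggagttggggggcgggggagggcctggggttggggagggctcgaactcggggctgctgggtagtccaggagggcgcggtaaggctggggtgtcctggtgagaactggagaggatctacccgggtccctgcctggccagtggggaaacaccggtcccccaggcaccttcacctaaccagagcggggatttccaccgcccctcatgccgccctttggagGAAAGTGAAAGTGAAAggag

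The ISRE letters were found in 4 of the 7 members (HLA-F, B2M, TAP2 and TAPBP), against 3.14% of 27305 promoters of the same length. In B2M and in TAPBP they occurred as a pair of overlapping matches, starting at positions -144 and -138 in B2M and at -20 and -14 in TAPBP, counted from the start site. The kappaB letters of enhancer A were found in HLA-B alone of the 7, at -177 and, overlapping it on the other strand, at -176 (0.359% of all promoters). TGACG was found in HLA-B, HLA-C, B2M and TAP2 (21.1% of all promoters), and CCAAT in HLA-B, HLA-C, HLA-F and B2M (32.7%). The GAS letters were found in TAP1 alone of the 7, at -189 (6.80%). A match describes the letters in the window and shows no binding. Elements whose letters differ from these patterns were not marked, so a promoter without a match can still hold a variant of the element.

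All 9 members were higher in the OE cells as fitted, by 1.20-fold to 1.66-fold, with a median log2 fold change of 0.52 against -0.0041 over all 19101 genes tested. Over all genes, 18.3% were called higher and 19.7% lower at an adjusted p under 0.05 (edgeR quasi-likelihood test). The lowest OE library lay above the highest control library for each of the 9, which held for 24.7% of all genes, and the reverse for 26%. None of the 9 reached the more than 2-fold change that the labels set as the study's own criterion, which 2.95% of all genes passed in either direction. With the GC and length offset, 6 of the 9 were higher and none lower, against 11.5% and 11.1% of all genes: HLA-C, HLA-E, B2M, TAP1, TAP2 and TAPBP. None was lower at an unadjusted p under 0.05 either. Without the offset, DESeq2 and limma-voom also called 9 members higher and 0 lower. HLA-B, HLA-F and NLRC5 did not pass with it, and the members' median was 0.36 against -0.013 over all genes.

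**Figure D1:**
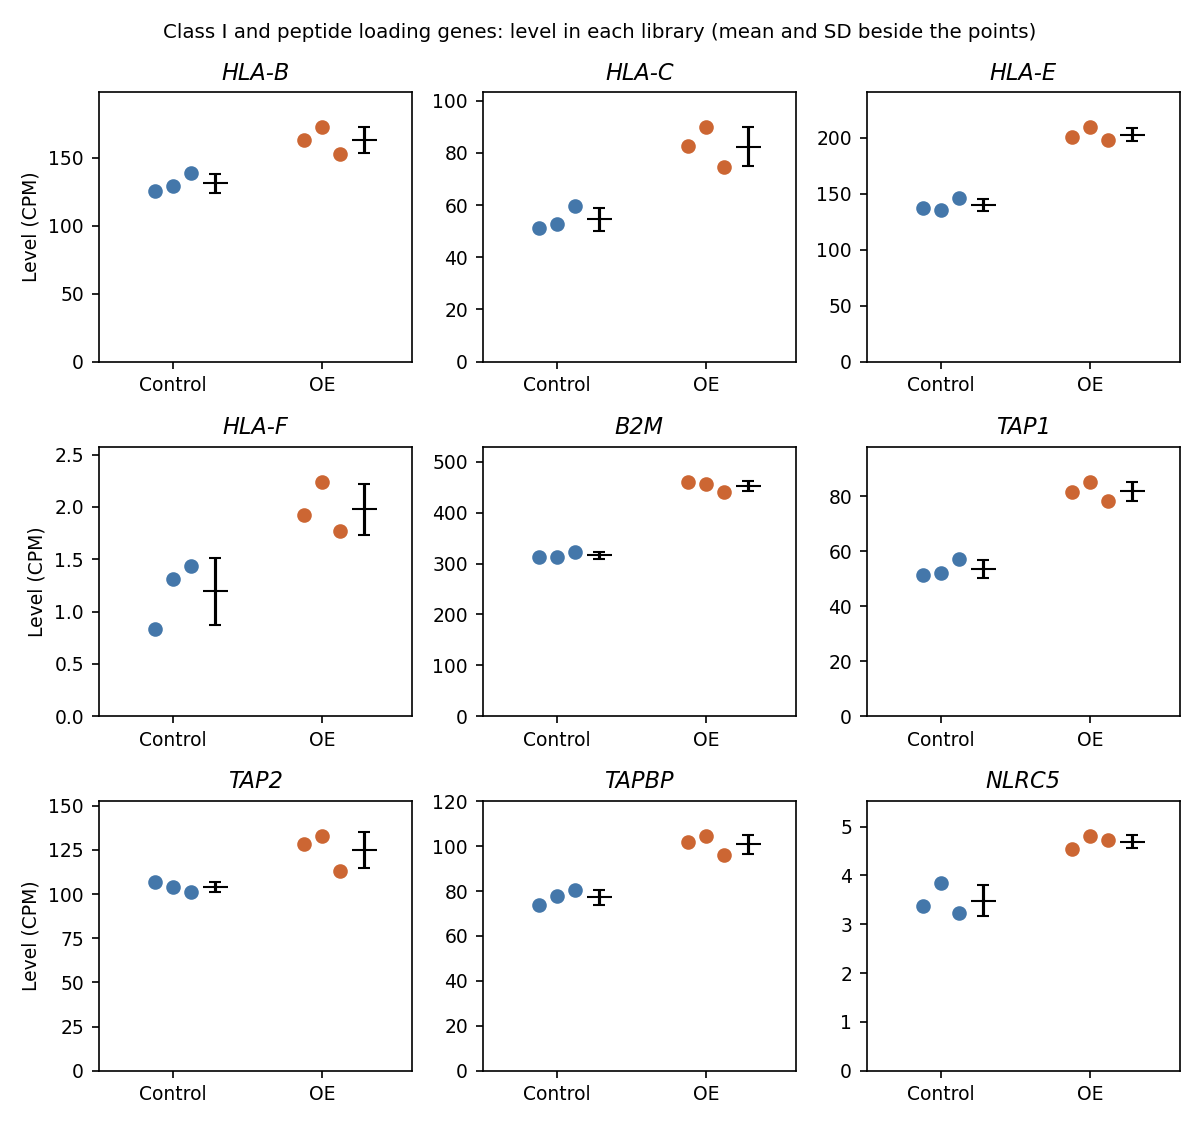
Level of each of the 9 genes in CPM (vertical axes, each from 0) in the 3 control (blue) and 3 overexpressing (OE, orange) libraries, with the mean and SD beside the points. In every panel the 3 OE points lie above the 3 control points, by a small margin for HLA-B and TAP2 and by a wide one for B2M.

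HLA-B (ENSG00000234745) is a classical heavy chain gene of 8 exons on chromosome 6 (31353872 to 31367067, minus strand, GRCh38 by GENCODE 44). Its level was 126, 129 and 139 CPM in controls 1 to 3 and 163, 172 and 153 CPM in OE libraries 1 to 3. The OE libraries were all higher, and control 3 and OE 3 came closest to each other. The rise was 1.24-fold (log2 fold change 0.31, SE 0.06, adjusted p = 0.0023 by edgeR). It was not there with the GC and length offset, where the log2 fold change was -0.0054 (SE 0.04, adjusted p = 0.94) and the groups overlapped. The offset levels were 144, 147 and 148 CPM in the controls against 141, 153 and 143 CPM in OE.

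HLA-C (ENSG00000204525), the neighbouring classical heavy chain gene (chromosome 6, 31268749 to 31272130, minus strand, 8 exons), was at 51.3, 52.6 and 59.6 CPM in the controls and 82.6, 89.9 and 74.8 CPM in OE. The groups were well apart. It rose 1.51-fold (log2 fold change 0.60, SE 0.08, adjusted p = 0.00056) and, with the offset, 1.20-fold (log2 fold change 0.27, SE 0.05, adjusted p = 0.0062). HLA-C and HLA-B have transcripts of nearly the same GC content (60.1% and 58.9%) and length (1542 and 1536 bases), so the trend that the offset removes was nearly the same for both, 0.33 and 0.32 on the log2 scale.

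The count of HLA-C over that of HLA-B within a library was 0.408, 0.408 and 0.430 in the controls and 0.506, 0.521 and 0.489 in OE. This ratio does not depend on scaling between libraries, and its groups did not overlap. An exact two-sided permutation test gave p = 0.10, the smallest that 3 libraries against 3 allow (adjusted p = 0.133 over 4 ratios chosen after seeing the data). With the offset the ratio was 0.411, 0.41 and 0.43 against 0.504, 0.52 and 0.488, again without overlap.

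HLA-E (ENSG00000204592), whose product shows leader peptides of other class I chains to NK cell receptors, lies on the plus strand of chromosome 6 from 30489509 to 30494194 and has 8 exons. Its level was 138, 135 and 146 CPM in the controls and 201, 209 and 198 CPM in OE, with a wide gap between groups. The rise was 1.45-fold (log2 fold change 0.54, SE 0.04, adjusted p = 0.00011) and 1.25-fold with the offset (log2 fold change 0.32, SE 0.03, adjusted p = 0.00018). The count of HLA-E over that of HLA-B was 1.09, 1.05 and 1.05 in the controls and 1.23, 1.21 and 1.30 in OE (exact permutation p = 0.10, adjusted p = 0.133).

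HLA-F (ENSG00000204642), a non-classical chain that can reach the cell surface without peptide, spans 29722775 to 29738528 on the plus strand of chromosome 6. It was the lowest heavy chain gene by far, with 74, 124 and 129 counts in the controls and 162, 187 and 159 in OE (0.830, 1.31 and 1.44 against 1.92, 2.24 and 1.77 CPM). Control 1 was low and the gap to the OE libraries was small. Its log2 fold change of 0.73 had the widest error of the 9 (SE 0.24, adjusted p = 0.038), and with the offset it was 0.42 (SE 0.22, adjusted p = 0.22). The call was also lost without control 1 (adjusted p = 0.0989), control 2 (0.0653), OE 1 (0.0798) or OE 2 (0.117). The antisense gene HLA-F-AS1 overlaps it and had 94 to 136 counts per library. Whether counting used strand is not given in the sources used here, and the sum of both entries did not pass (log2 fold change 0.43, adjusted p = 0.0675).

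Heavy chain genes share sequence, and the alleles of this line can differ from the reference, so reads can be lost or moved between them. In GENCODE 44, 0.277% of the 100-base stretches of the HLA-C canonical transcript occur in a transcript of another gene, the pseudogene HLA-H among them, and 0.612% of those of HLA-E in HLA-G. None of those of HLA-B or HLA-F does. Summed over HLA-B, HLA-C, HLA-E and HLA-F, the level was 326 ± 17 CPM in the controls and 450 ± 23 CPM in OE (SD, n = 3 each), a ratio of 1.38. With the offset it was 359 ± 6.3 and 409 ± 14 CPM, a ratio of 1.14, and the groups were still apart.

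B2M (ENSG00000166710) encodes the light chain that every class I heavy chain needs to fold and leave the endoplasmic reticulum, and it lies outside the MHC, on the plus strand of chromosome 15 from 44711358 to 44718851, with 4 exons. It was at 313, 312 and 324 CPM in the controls and 461, 456 and 441 CPM in OE. The groups were far apart and each was tight. B2M rose 1.43-fold (log2 fold change 0.52, SE 0.04, adjusted p = 5.9e-05). Its transcript is low in GC (39.1%), the opposite of the heavy chains (55.1% to 60.1%), and the trend at its GC content and length was -0.20 on the log2 scale. With the offset its rise was therefore larger, 1.64-fold (log2 fold change 0.72, SE 0.06, adjusted p = 9.6e-05), and with an offset for GC alone it was larger again (log2 fold change 0.88, adjusted p = 3.9e-05). The count of B2M over the summed heavy chain counts was 0.991, 0.981 and 0.936 in the controls and 1.03, 0.962 and 1.03 in OE, overlapping (exact permutation p = 0.30, adjusted p = 0.30). With the offset, which moves B2M and the heavy chains in opposite directions, the ratio was 0.806, 0.794 and 0.867 against 1.2, 1.24 and 1.12, and the groups were apart.

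**Figure D2:**
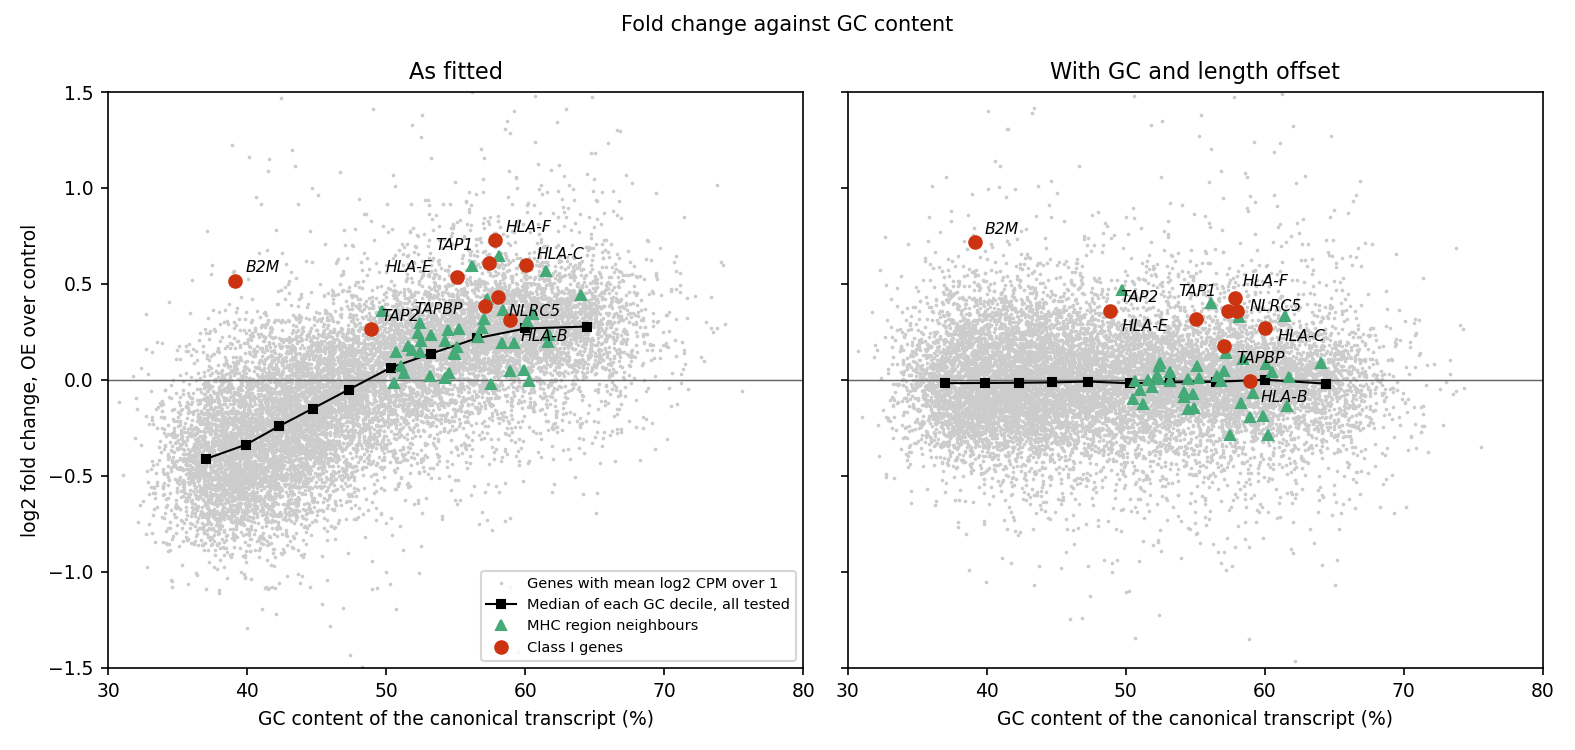
Log2 fold change of OE over control (vertical axis, cropped, so that the most changed genes are not shown) against GC content of the canonical transcript (horizontal axis, percent) as fitted (left) and with the GC and length offset (right). Grey points are genes with a mean log2 CPM above 1, black squares the median of each of 10 bins of GC, green triangles 40 genes of the MHC region and red circles the class I genes; as fitted B2M stands far above genes of its GC content while HLA-B lies near the black line, and on the right HLA-B is at 0.

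TAP1 (ENSG00000168394) and TAP2 (ENSG00000204267) encode the partner chains of the peptide transporter and lie near each other in the class II region of chromosome 6. TAP1 is at 32845209 to 32853816 and TAP2 at 32821833 to 32838739, both on the minus strand. TAP1 was at 51.3, 52.2 and 57.2 CPM in the controls and 81.7, 85.3 and 78.3 CPM in OE, with a wide gap. It rose 1.53-fold (log2 fold change 0.61, SE 0.06, adjusted p = 0.00017), and 1.28-fold with the offset (log2 fold change 0.36, SE 0.03, adjusted p = 0.00020). TAP1 overlaps PSMB9 and PSMB8-AS1 on the other strand, and its sum with PSMB8-AS1 (30 to 56 counts per library) gave 0.61 again. PSMB9 did not pass, with control and OE means of 7.51 and 9.62 CPM (adjusted p = 0.076).

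TAP2 was at 107, 104 and 101 CPM in the controls and 128, 133 and 113 CPM in OE. OE 3 was the lowest of its group and lay closest to the controls. The rise of 1.20-fold was the smallest of the 9 (log2 fold change 0.26, SE 0.06, adjusted p = 0.0079), and with the offset it was 1.28-fold (log2 fold change 0.36, SE 0.06, adjusted p = 0.0022).

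A readthrough gene of TAP2 and the sequence downstream, ENSG00000250264, holds 34.7% of the 100-base stretches of the TAP2 canonical transcript, so the counting could divide reads between these entries. Its counts were 3415, 4310 and 3468 in the controls and 2202, 2373 and 3662 in OE, lower in OE 1 and OE 2 but not in OE 3. Its log2 fold change was -0.36 as fitted (adjusted p = 0.0925), and with the offset it was called lower, at -0.62 (adjusted p = 0.0266). TAP2 summed with it was at 145, 149 and 140 CPM in the controls and 155, 161 and 154 CPM in OE, and did not pass as fitted (log2 fold change 0.11, SE 0.04, adjusted p = 0.065). With the offset the sum rose (log2 fold change 0.21, adjusted p = 0.0024). The count of TAP1 over that of TAP2 was 0.481, 0.503 and 0.565 in the controls and 0.636, 0.642 and 0.692 in OE (exact permutation p = 0.10, adjusted p = 0.133). With the offset the ratio was 0.554, 0.578 and 0.612 against 0.545, 0.564 and 0.64, so that the groups overlapped. This ratio too rests on how the TAP2 reads were divided.

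TAPBP (ENSG00000231925), the tapasin gene (chromosome 6, 33299694 to 33314284, minus strand, 8 exons), was at 73.6, 77.6 and 80.4 CPM in the controls and 102, 104 and 96.0 CPM in OE, clearly apart. It rose 1.31-fold (log2 fold change 0.38, SE 0.05, adjusted p = 0.00058) and, with the offset, 1.13-fold (log2 fold change 0.18, SE 0.03, adjusted p = 0.0051).

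NLRC5 (ENSG00000140853), the transactivator that acts on class I promoters, has 49 exons on the plus strand of chromosome 16 from 56989485 to 57083531. Its counts were few: 300, 364 and 291 in the controls and 384, 401 and 425 in OE, or 3.37, 3.85 and 3.24 against 4.55, 4.81 and 4.73 CPM. The OE libraries were all higher. NLRC5 rose 1.35-fold as fitted (log2 fold change 0.43, SE 0.13, adjusted p = 0.028). It did not pass with the offset (log2 fold change 0.36, SE 0.13, adjusted p = 0.084), nor with library size alone as the scaling (adjusted p = 0.0516). Without control 1, control 3, OE 1, OE 2 or OE 3 the adjusted p was 0.0834, 0.075, 0.0559, 0.0759 and 0.0651.

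**Figure D3:**
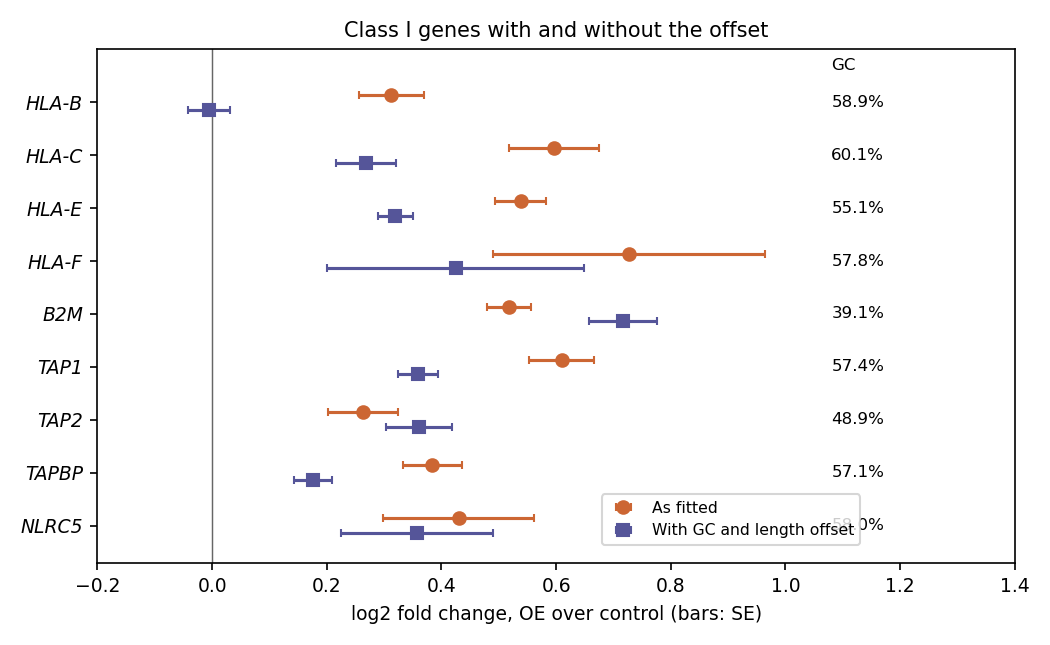
Log2 fold change of OE over control (horizontal axis) for each of the 9 genes as fitted (orange circles) and with the GC and length offset (violet squares), bars showing the SE and the right column the GC content of the canonical transcript. The offset moves HLA-B from 0.31 to -0.0054 and B2M from 0.52 to 0.72, the opposite way.

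On a scale of CPM per kilobase of canonical transcript, the level in the controls was 335 for B2M, 85.4 for HLA-B, 54.8 for HLA-E, 35.4 for HLA-C, 22.4 for TAPBP, 20.0 for TAP1, 18.4 for TAP2, 0.81 for HLA-F and 0.51 for NLRC5. The libraries of neighbours in this order did not overlap, except for HLA-F and NLRC5, and the highest TAP1 library and the lowest TAPBP library were level at 21.3. In OE the order was the same but for TAP1, at 30.5, and TAPBP, at 29.2, which overlapped. The light chain transcript stood at 3.93 times HLA-B per kilobase in the controls and 4.53 times in OE.

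The genes whose levels ran most closely with the heavy chains included ADIPOR1, ANGPTL4, BACE1 and IST1. The Pearson correlations of the 5 closest over the 6 libraries with the mean of the 4 heavy chain genes were 0.998 to 1.00. Libraries of a group share the difference between groups, and 1112 of 11211 genes compared had a correlation over 0.95, so this is a description of these libraries only.

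Other genes of the class I pathway were called in both directions. Of 17 listed, 16 were measured, of which 8 were higher, 3 lower and 5 not called. Over all genes 18.3% were higher and 19.7% lower, so the 3 lower lay near the share of all genes. Their median log2 fold change was 0.21. The chaperone calreticulin (CALR) rose by 0.42 on the log2 scale (adjusted p = 0.00030; 0.20 and adjusted p = 0.0029 with the offset). The disulphide isomerase PDIA3, tapasin's partner in the loading complex, rose by 0.16 (adjusted p = 0.018; 0.35 with the offset). The proteasome activator subunits PSME1 and PSME2 rose by 0.42 and 0.30, and by 0.22 and 0.13 with the offset. The immunoproteasome subunits PSMB8 and PSMB10 rose by 0.42 each as fitted, but with the offset neither passed (adjusted p = 0.0507 and 0.67). The peptidases NRDC and TPP2, which cut peptides in the cytosol, fell by 0.34 and 0.35 on the log2 scale, and of these NRDC passed with the offset (-0.21). The trimming aminopeptidases ERAP1 and ERAP2 did not pass (adjusted p = 0.12 and 0.33).

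With the offset, 6 of these 16 genes were higher and 1 lower, against 11.5% and 11.1% of all genes, with a median of 0.12. Both fits called 4 of them higher, namely CALR, PDIA3, PSME1 and PSME2. The chaperone calnexin (CANX) and the folding sensor UGGT1 made up the rest, at 0.36 (adjusted p = 0.00021) and 0.099 (adjusted p = 0.045). CANX had a log2 fold change of -0.0080 as fitted, and UGGT1 had been called lower, at -0.25.

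Of 15 factors that act on class I promoters, all measured, 8 were higher and 3 lower as fitted. Over all genes it was 18.3% and 19.7%, so the 3 lower lay near the share of all genes. The interferon-responsive factors IRF9 (log2 fold change 2.94), IRF1 (0.55) and STAT2 (0.44) rose. IRF1, which binds the ISRE of class I promoters, went from 19.2 to 28.2 CPM (adjusted p = 0.0015). Of the RFX complex, RFX5 rose by 0.20 and RFXANK by 0.34, and RFXAP did not pass (adjusted p = 0.23). The partner factors CREB1, ATF1 and NFYB, whose transcripts are low in GC (35.2% to 36.4%), fell by 0.53, 0.43 and 0.36 on the log2 scale. The NF-kappaB subunit RELA rose by 0.29, while NFKB1 did not pass (adjusted p = 0.075). With the offset 5 were higher and none lower, against 11.5% and 11.1% of all genes (7 and none at an unadjusted p under 0.05). Among them were IRF9 (2.69), IRF1 (0.43), STAT2 (0.42) and RFX5 (0.18), and all 5 were higher as fitted too.

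Class I-like genes, which encode ligands of immune receptors or partners of the light chain, were higher in 4 of 11 measured cases (18.3% of all genes). Those higher were the stress ligand genes MICA (0.49), MICB (0.27) and ULBP2 (0.78) and the Fc receptor gene FCGRT (0.60). With the offset 5 were higher (11.5% of all genes), these 4 (0.25, 0.17, 0.74 and 0.26) and MR1 (0.60). That count fell to 1 without control 1, 2 without OE 3, and 3 without control 2 or OE 1. None was lower by edgeR in either fit (19.7% of all genes as fitted and 11.1% with the offset). As fitted ULBP3 came closest (-0.34, adjusted p = 0.053), and DESeq2 and limma-voom each called 1 gene of this list lower. So did edgeR with library size alone, with the stricter filter (at least 1 CPM in 3 libraries) and without OE 3. None of the 4 measured class II genes was called by edgeR, as fitted or with the offset, or by limma-voom. Over all genes 18.3% were higher and 19.7% lower as fitted. The mean levels of these 4 genes in the controls were at most 1.75 CPM. The class II transactivator CIITA, a relative of NLRC5, was the 1 among them with an unadjusted p under 0.05 (log2 fold change -1.21, adjusted p = 0.058), and its groups overlapped. DESeq2 called 1 of the 4 lower, as did edgeR with the stricter filter. Without control 3, edgeR called 1 higher and 1 lower. Among 9 measured interferon, receptor and kinase genes, 1 was higher and 2 lower as fitted, near the shares of all genes (18.3% and 19.7%). TYK2 rose by 0.27, and IFNAR1 and IFNE fell by 0.40 and 2.79 on the log2 scale. With the offset none of the 9 passed (2 at an unadjusted p under 0.05), against 11.5% higher and 11.1% lower over all genes. IFNE rests on 25, 18 and 11 counts against 4, 3 and 0 (SE 0.97, adjusted p = 0.049). The count of lower genes in this list was 1 in place of 2 with no filter, with the stricter filter, with the replicate block, and without any single library other than OE 3. IFNB1 and the IFNL genes were not analysed here.

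Genes listed for their place in the MHC region of chromosome 6 gave a comparison of like position for the 7 members of the MHC. For all members but B2M and TAP2 it was also of like GC content (49.7% to 64.0%). Whether any of the listed genes acts in class I presentation was not checked. NLRC5 and B2M lie on other chromosomes. Of the 40 MHC region genes, all measured, 26 were higher as fitted (18.3% of all genes), with a median of 0.20 on the log2 scale. None was lower by edgeR (19.7% of all genes), also at an unadjusted p under 0.05, by DESeq2 or by limma-voom. Those with the smallest p were the ubiquitin ligase TRIM26 (0.59), IER3 (0.65) and the collagen receptor DDR1 (0.57). With the offset 4 were higher and 4 lower, near the shares of all genes (11.5% and 11.1%), and the median was 0.0022. An offset for GC alone gave 9 higher and 5 lower. Under the GC and length offset the 4 lower were TRIM27 (-0.15), PPP1R18 (-0.19), RING1 (-0.13) and KIFC1 (-0.29), of which RING1 had been higher as fitted. The 4 higher, all of them also higher as fitted, were TRIM26 (0.40), GNL1 (0.47), IER3 (0.33) and DDR1 (0.34). Set beside them, 9 of 9 class I genes were higher as fitted and 6 of 9 with the offset, with medians of 0.52 and 0.36. These counts and medians also take in B2M and NLRC5, which are not of like position. With the offset B2M was at 0.72, the largest of the 9, and NLRC5 at 0.36, not called. Of the 7 members in the MHC, HLA-B and HLA-F did not pass with the offset. The difference between the lists themselves was not tested.

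**Figure D4:**
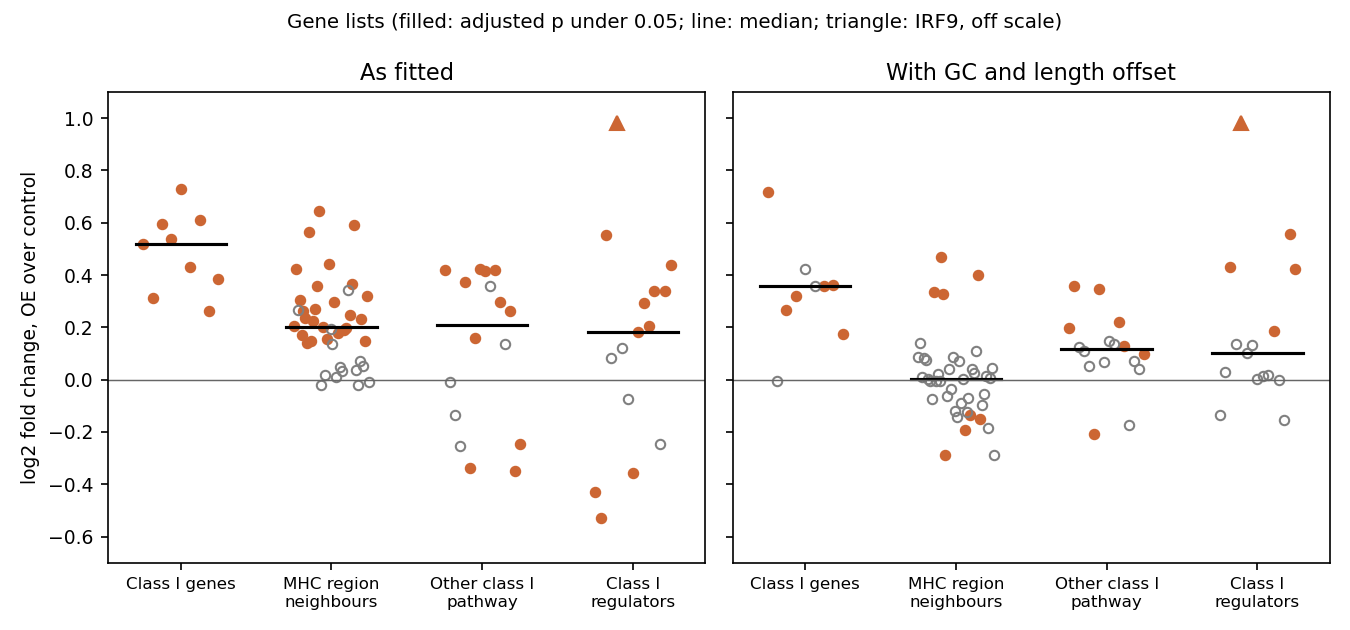
Log2 fold change of OE over control (vertical axis) for each gene of 4 lists as fitted (left) and with the GC and length offset (right), filled where the adjusted p was under 0.05, with the median as a line and IRF9 off the scale as a triangle. The median of the 40 MHC region genes moves from 0.20 to 0.0022 and that of the class I genes from 0.52 to 0.36.

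**Figure D5:**
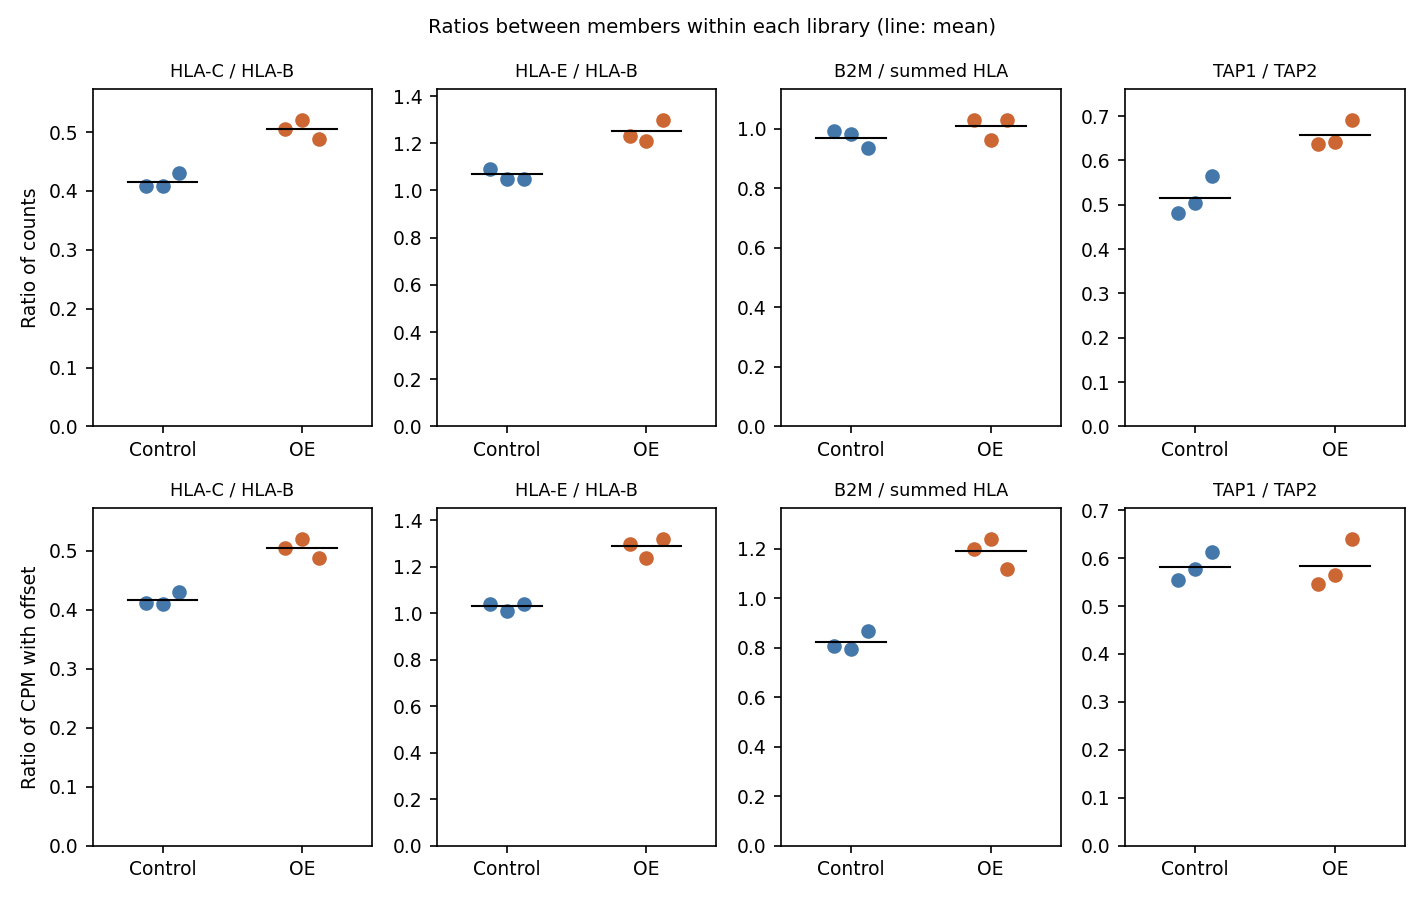
Ratio between members within each library, of counts (top row) and of CPM with the GC and length offset (bottom row; vertical axes, each from 0), for HLA-C over HLA-B, HLA-E over HLA-B, B2M over the summed heavy chains, and TAP1 over TAP2, in the 3 control (blue) and 3 OE (orange) libraries, with the mean as a line. Of the count ratios only that of B2M overlaps between groups, with OE 2 at 0.962 within the controls' range, while with the offset B2M is apart and TAP1 over TAP2 overlaps.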

How the data were processed

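RNA was extracted with TRIzol, reads were trimmed with fastp, aligned to GRCh38 with HISAT2 and assembled with StringTie, and edgeR was used for testing, per the labels' protocols. The deposited table holds raw counts, which the authors left without normalization. The library kit, its strandedness, tool versions and the method of counting are not stated by the labels used here.

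The test was that of edgeR 4.0.16 under R 4.3.3 (quasi-likelihood F-test, TMM scaling, filterByExpr with min.count 10 and min.total.count 15, group alone), which left 19101 of 19201 entries. Benjamini-Hochberg adjustment ran over all of them, with a threshold of 0.05. The SE was taken from the fold change and F, and CPM uses TMM-scaled library sizes. At a depth of 84531039 to 92780032 counts per library, HLA-F and NLRC5 rest on the fewest counts. The offset is the sum of natural splines (5 degrees of freedom each) of a library's log2 CPM deviations on GC content and log2 length of the GENCODE 44 canonical transcript, known for 19067 entries.

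The members, the lists and the offset were chosen with earlier results of these data known. Named genes were all members, the pathway and regulator genes, and up to 3 rising and 3 falling genes of each other list with the smallest p, with the others named after their values were seen. Genes alike to the heavy chains were the 5 with the highest correlation at a mean log2 CPM of at least 2. Entries whose symbol belongs to another Ensembl ID (18) were in no list. Some genes of the lists enter the counts but are not reported here by name. Other scalings, filters, DESeq2 1.42.0, limma-voom (limma 3.58.1), a replicate block and leaving out each library were tried. The sums with overlapping entries, the ratios with and without the offset, the offset for GC alone and the offset without each library were added after seeing the data. Within groups, libraries varied beyond counting noise (chi-square over its degrees of freedom, 11.4 to 22.2).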

Additional observations from a re-analysis of the deposited data

How the results depend on the processing

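HLA-C, HLA-E, B2M, TAP1 and TAPBP stayed higher and past the threshold under all 24 other settings (log2 fold changes of 0.21 to 0.67, 0.31 to 0.57, 0.47 to 0.88, 0.34 to 0.66 and 0.15 to 0.42), and TAP2 under all but its sum with the readthrough entry. HLA-B stayed past it in the 14 settings without an offset (0.26 to 0.35) and in none of the 10 with one. Its direction turned with the GC and length offset (-0.0054), the same with a replicate block (-0.0061) or summed entries (-0.0058), and when libraries were left out under the offset (-0.038 without OE 2, -0.020 without control 1, -0.0053 without control 2, and up to 0.018). With an offset for GC alone it was 0.062.

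Members called higher numbered 6 to 9 except by the labels' 2-fold criterion, which called 0 members, 0 pathway genes in either direction, and 1 regulator (IRF9) higher and 0 lower. With the GC and length offset, and with summed entries under it, 1 pathway gene was lower, 5 regulators were higher and 0 lower, and GC alone gave the same counts. Leaving out libraries under the offset gave 4 to 6 pathway genes higher and 1 lower, and 5 to 6 regulators higher and 0 lower.

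Deviations from the group mean correlated at -0.073, -0.26 and -0.44 between same-numbered libraries, so the replicate numbers gave no sign of pairing. Some differently numbered libraries correlated, at 0.359 for control 2 with OE 3 and 0.321 for control 3 with OE 2. With 3 libraries per group, centred on their means, these values cannot show whether libraries were made in pairs or batches. The replicate block called 7 members higher (HLA-F at an adjusted p of 0.0502 and NLRC5 at 0.062 did not pass), and with the offset 6 members, 4 pathway genes higher and 1 lower, and 5 regulators higher and 0 lower. Over all genes 3496 were higher and 3754 lower as fitted, 2197 and 2118 with the offset, 1740 and 1612 with block and offset, and 338 and 226 by the 2-fold criterion. With 74 to 187 counts for HLA-F and 291 to 425 for NLRC5, depth limits these genes most.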
